A study of Drosophila melanogaster with 4 samples.

Results

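Runs of small, closely spaced regions enriched for H3K4me1 (monomethylation of lysine 4 of histone H3) in fly larvae are described here. A run was defined as a row of 5 or more consecutive enriched regions on a chromosome, each under 10000 bases wide and each separated from the next by a gap under 2000 bases. A region of 10000 bases or more ended a run. Applied to the combined region list of the series, this rule found 262 runs, which held 1588 of the 9501 enriched regions (16.7%, 95% Wilson interval 16.0 to 17.5) and 12.1% of the enriched bases. They made up 18.8% of the 8458 enriched regions under 10000 bases. The members were chosen by the positions and widths of regions in the combined list, so run numbers, widths and gaps are given as a description with no test.

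The data came from nuclei of wild-type Drosophila melanogaster larvae (Oregon-R, modENCODE stock) at the third instar, the last larval stage, fixed with formaldehyde. Chromatin immunoprecipitation followed by sequencing used a single antibody lot against H3K4me1 in 2 ChIP samples, replicate 1 and replicate 2. The other 2 samples were inputs, sheared chromatin without immunoprecipitation, each of which served as background for the ChIP list of its own number. Region lists were deposited for replicate 1 (7177 enriched regions), for replicate 2 (9903) and for the series as a whole, the combined list. There was 1 genotype and no treatment, and the labels name no tissue, so a mark in fewer nuclei and a weaker mark in all nuclei cannot be told apart. No label says that the replicates came from separate cultures, so the spread between them may be technical. Read depth is unknown for every list.

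H3K4me1 is carried by nucleosomes at enhancers, poised and active, and beside active promoters. In flies it is placed mainly by the methyltransferase Trithorax-related, the counterpart of mammalian MLL3 and MLL4. As background, the mark dips where nucleosomes are removed at the centre of an active enhancer, and at active promoters it gives way to trimethylation of the same lysine. Whether the gaps of the runs lie over such elements was not tested. Gene annotation and sequence of the genome release used by the files (FlyBase release 5) were not used here, so no run is assigned to a gene, enhancer or promoter, and runs are named by coordinates on that release.

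Most runs were short rows. The number of regions in a run ranged from 5 to 15 with a median of 6. There were 130 runs of 5 regions, 63 of 6, 31 of 7, 20 of 8 and 18 of 9 or more. The median span was 22.1 kb, and spans ran from 10.4 kb to 62.6 kb. The 262 spans added up to 6.32 Mb, of which 5.39 Mb lay inside regions and 925.4 kb in gaps. Regions filled between 61.0% and 97.9% of the span of a run, with a median of 85.4%, so enriched sequence made up most of every run.

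**Figure D1:**
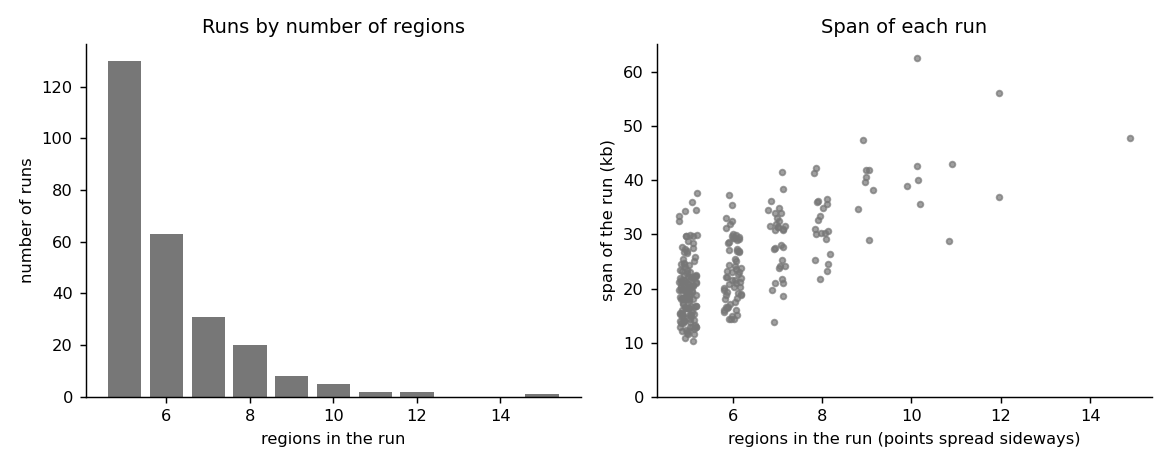
Left, number of runs of the combined list (vertical axis) by the number of regions they hold (horizontal axis). Right, span of each of the 262 runs in kb against its number of regions, 1 point per run. Runs of 5 regions were the most frequent (130), and spans reached 62.6 kb.

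Inside the runs, gaps were much narrower than the regions they separated. The 1326 gaps had a median of 572 bases (quartiles 222 and 1079 bases), and the narrowest was 1 base wide. The member regions had a median width of 2582 bases (quartiles 1686 and 4639). Centres of neighbouring regions lay 3866 bases apart in the median (quartiles 2875 and 5172). Gap widths of the 3886 other gaps under 2000 bases in the list were close to these, with a median of 553 bases, and 10 of those were pairs of touching regions with no base between them, a state found at 0 gaps of the runs. Regions outside runs but under 10000 bases were 2411 bases wide in the median (6870 regions). Small regions and gaps under 2000 bases thus had nearly the same widths inside and outside runs, with the same limits of width applied to both.

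No break in the list set runs of 5 apart from shorter rows. The same spacing gave 217 rows of 4 small regions, 493 of 3 and 1008 of 2, and 2507 small regions had no small neighbour within 2000 bases. At the limits of the rule, the widest gap inside a run was 1998 bases and the narrowest gap left out was 2000 bases. The whole list held 93 gaps within 100 bases below that limit and 115 in the 100 bases from it upward. The widest member region measured 9913 bases and the narrowest region too wide to be a member 10001 bases. Median region width was 2494 bases in rows of 2, 2582 in rows of 5 and 2699 in rows of 8 or more, and the median gap was 568, 606 and 495 bases. Lengths in between did not follow one direction: the median width was 2681 bases in rows of 4 and 2467 in rows of 6, and the median gap 557.5 bases in rows of 3 and 596 in rows of 4.

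The run with the most regions lay on X (X:19080617-19128483, 47.9 kb) and held 15 regions. Its regions were between 1077 and 5145 bases wide, and its gaps between 24 and 1442 bases. Replicate 2 met 13 of the 15 regions and covered 86.3% of their bases, and replicate 1 met 7 and covered 43.8%. Replicate 1 covered 0% of regions 3, 4, 6, 7, 8, 9, 10 and 12, counted from the left. Replicate 2 covered 0% of regions 7 and 12 only, and 100% of regions 6, 8, 9 and 10. Replicate 2 bridged 1 of the 14 gaps, of 24 bases, and replicate 1 bridged 2, of 110 and 58 bases. Bridged means here that a single enriched region of the replicate overlapped both neighbours of the gap by at least 1 base. The row of 15 pieces was therefore seen as 12 pieces in replicate 2 and 6 in replicate 1.

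The next longest runs also had members that only one list met. On 3R a run of 12 regions (3R:24356912-24413074, 56.2 kb) had 11 members met and 93.6% of region bases covered in replicate 2. In replicate 1 it had 8 members met and 51.2% covered, and regions 1, 5, 6 and 7 were at 0%. On 2L a run of 12 regions (2L:4794250-4831143, 36.9 kb) was covered to 92.0% in replicate 2 and 63.9% in replicate 1, and neither met its region 3, which was 1017 bases wide. The 2 runs of 11 regions were 3L:11512689-11555661 (43.0 kb) and 3R:834781-863637 (28.9 kb). In the run on 3L the replicates covered nearly the same share of region bases, 81.7% in replicate 1 and 79.6% in replicate 2. There replicate 1 joined 3 pairs of regions, across gaps of 15, 138 and 15 bases, and its widest region measured 13998 bases. In the run on 3R neither replicate bridged any of the 10 gaps, which were between 5 and 577 bases wide.

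**Figure D2:**
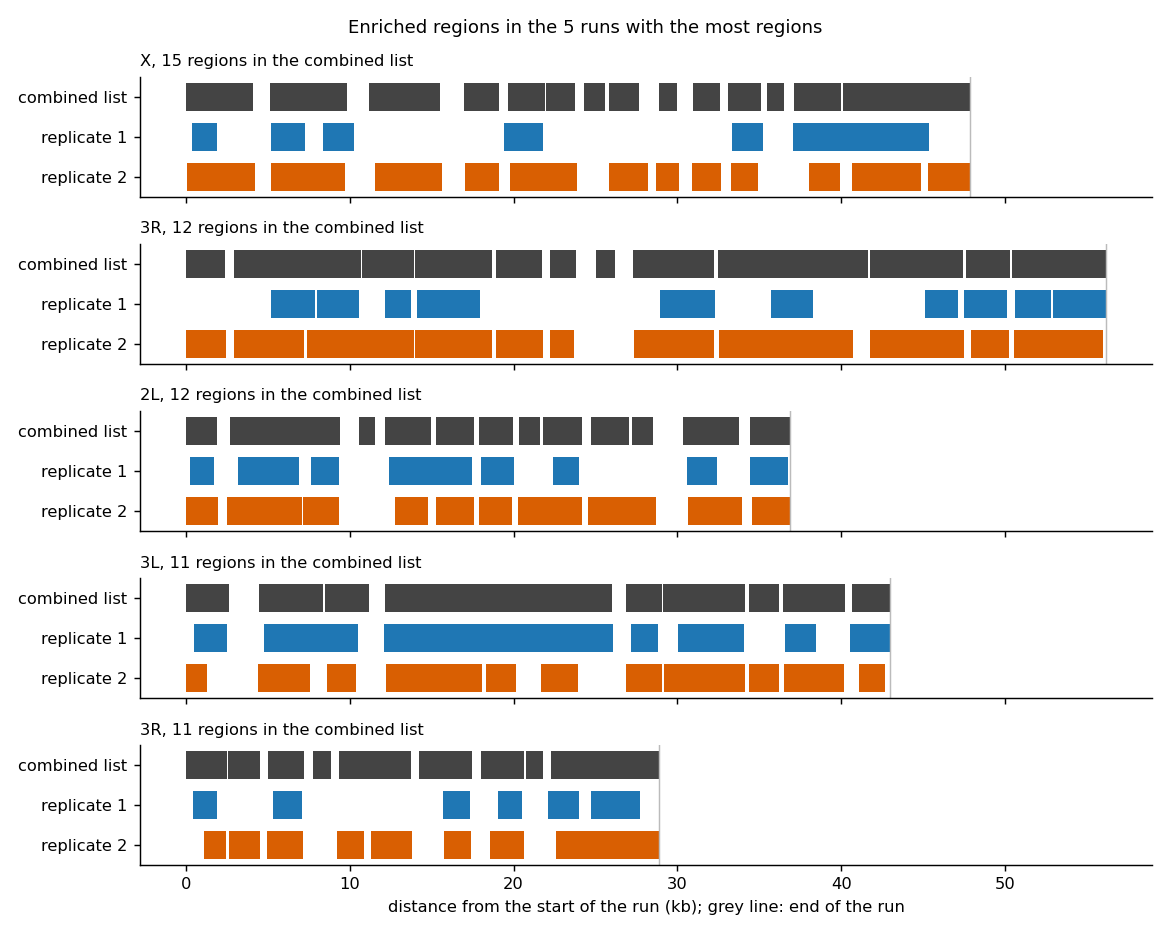
Enriched regions of the combined list (grey), replicate 1 (blue) and replicate 2 (orange) in the 5 runs with the most regions, drawn to scale against the distance from the start of each run in kb and clipped at the run's ends. The narrowest gaps are not visible at this scale. Replicate 1 leaves out several members in the runs on X and 3R, and few gaps are filled from side to side.

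The widest run spanned 62.6 kb on 2R (2R:14009382-14071949) and stood out by its scores. It held 10 regions with a median score of 0.93, where the median over the 262 runs was 0.45 and the highest was 1.04. The score is the authors' own value for a region, above 0 for enrichment, on a scale that no file states. Replicate 1 covered 83.7% of its region bases and replicate 2 covered 95.6%. Replicate 2 bridged 0 of its 9 gaps and replicate 1 bridged 3, of 61, 603 and 198 bases. Both replicates kept the gap of 1614 bases after its region 4 open, with 0 bases covered in replicate 1 and 83 in replicate 2. The remaining run among the 5 widest, 3R:4024604-4071967 (47.4 kb, 9 regions), had 0 of 8 gaps bridged in either replicate.

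Replicates left most gaps inside runs open. Replicate 1 bridged 210 of the 1326 gaps (15.8%, 95% Wilson interval 14.0 to 17.9), where it bridged 16.1% of all gaps under 2000 bases in the combined list. Replicate 2 bridged 64 (4.83%, interval 3.80 to 6.12), against 6.12% of all such gaps. The mean over replicates was 10.3% ± 7.79 (SD, n = 2). A gap bridged by both replicates was rare, at 4 of 1326 (0.302%, interval 0.117 to 0.773), against 0.307% of all short gaps. Neither replicate bridged 1056 gaps (79.6%), against 78.1% of all short gaps. Each share of the runs was near that of the list as a whole. The intervals cover counting error only, and gaps of one run share their surroundings. The combined list belongs to these same samples, so its gaps are not independent of the replicates.

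Setting the gaps inside runs beside the 3886 other gaps under 2000 bases gave small differences. In replicate 1 the bridged share was 15.8% inside runs and 16.1% elsewhere, a difference of -0.298 percentage points. In replicate 2 it was 4.83% and 6.56%, a difference of -1.74 points. The mean difference was -1.02 ± 1.02 points (SD, n = 2), and 2 samples allow no exact permutation test to reach 0.05. When the other gaps were limited to rows of 2 to 4 small regions, the difference was 0.828 points in replicate 1 and -1.60 in replicate 2, so the replicates then had opposite signs. For runs drawn from a replicate list, described further on, the difference was positive, at 3.42 points in the replicate 1 list and 2.00 in the replicate 2 list. By bases, replicate 1 covered 18.1% of gap sequence inside runs and 17.5% elsewhere, and replicate 2 covered 8.65% and 9.40%.

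Narrow gaps were bridged more often than wide ones, and replicate 1 bridged more than replicate 2 in every class of width inside runs. For gaps under 250 bases, replicate 1 bridged 27.8% of 378 and replicate 2 bridged 14.3%. For gaps from 250 to under 500 bases the shares were 20.0% and 3.48% of 230. From 500 to under 1000 bases they were 13.2% and 0.3003% of 333, and from 1000 to under 1500 bases 6.01% and 0.429% of 233. Of the 152 widest gaps, from 1500 to under 2000 bases, replicate 1 bridged 1 (0.658%) and replicate 2 bridged 0. A count of 0 is read here and below as allowing up to 3 counts, which gives a share of up to 1.97%, beside a Wilson upper bound of 2.46%. All 4 gaps bridged by both replicates were under 250 bases wide. The widest gap bridged inside runs measured 1753 bases in replicate 1 and 1148 bases in replicate 2. Bridging fell with width at other gaps under 2000 bases too. With touching pairs left out, replicates 1 and 2 bridged 31.65% and 18.6% of 1106 such gaps under 250 bases. The shares were 19.5% and 3.44% from 250 to under 500 bases, and 9.46% and 1.41% from 500 to under 1000. They were 4.87% and 0.471% from 1000 to under 1500 bases. From 1500 to under 2000 bases replicate 1 bridged 2.94% of 442 and replicate 2 bridged 0, which allows up to 0.679%.

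**Figure D3:**
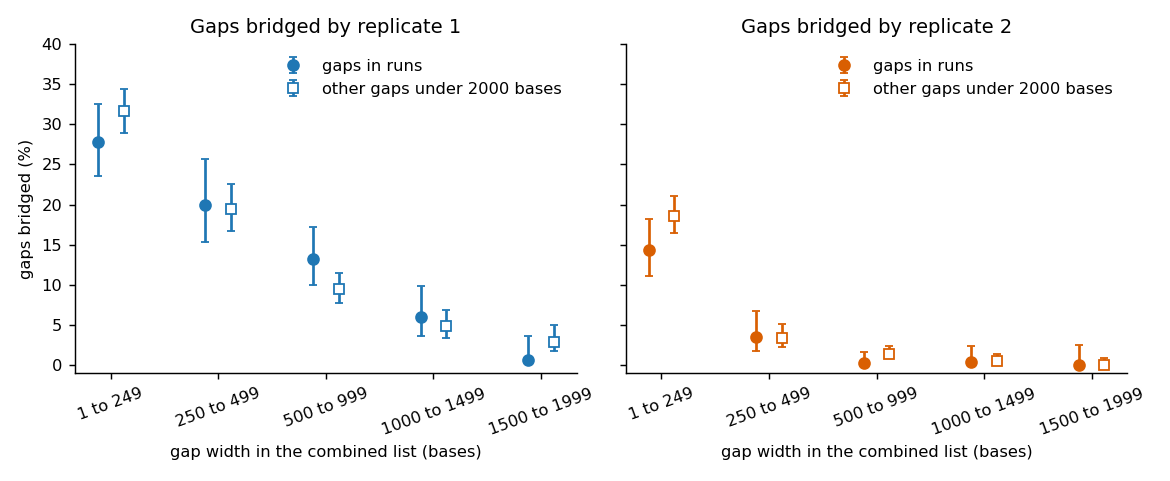
Share of gaps bridged (vertical axis, %) by gap width in the combined list (horizontal axis, bases), for replicate 1 (left) and replicate 2 (right). Filled points are gaps inside runs, open squares are other gaps under 2000 bases, and bars are 95% Wilson intervals. Inside runs, replicate 1 bridged 27.8% of the narrowest and 0.658% of the widest gaps, and replicate 2 bridged 14.3% and 0%.

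The regions that bridged gaps were usually small themselves. In replicate 1, 176 regions accounted for the 210 bridged gaps, and in replicate 2, 56 regions accounted for 64. Of these, 148 and 49 bridged a single gap. The most gaps bridged by a single region was 3 in each replicate, a case met by 6 regions of replicate 1 and 1 of replicate 2. Median widths of the bridging regions were 5874 and 5061 bases, and 31 and 5 of them measured at least 10000 bases. No run was turned into a single region: the runs with every gap bridged numbered 0 of 262 in each replicate, which allows a share of up to 1.15%. At least 50% of gaps were bridged in 27 runs by replicate 1 and in 5 by replicate 2, and in 95 runs (36.3%, interval 30.7 to 42.2) no gap was bridged by either.

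Gaps that were not bridged differed between the replicates in what lay beside them. In replicate 2, regions lay on both sides of the gap and stopped short of each other at 868 gaps (65.5%), where this was found at 69.1% of all short gaps. In replicate 1 this held at 448 gaps (33.8%, against 39.4% of all short gaps). Replicate 1 lacked a region on one side of 495 gaps (37.3%) and on both sides of 173 (13.0%). The same counts in replicate 2 were 334 (25.2%) and 60 (4.52%). Open gaps between 2 met neighbours were found in both replicates at 352 gaps (26.5%, interval 24.2 to 29.0), against 31.9% of all short gaps. They were found in at least one replicate at 964 (72.7%), here set against 77.8% of the short gaps outside runs only. At gaps in rows of small regions too short to be runs, the shares were near those of runs. Open gaps between met neighbours made up 34.3% there in replicate 1, 64.3% in replicate 2, 26.5% in both and 72.1% in at least one. At gaps beside a region too wide to be a member, the same shares were higher, at 56.2%, 83.1%, 49.3% and 89.9%. These 352 were gaps between separate regions in all 3 lists.

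Where both neighbours were met and the gap was not bridged, the replicates more often drew a wider gap than the combined list. The 210 and 64 bridged gaps, at which the replicate has no gap, are left out of these values. The median gap was 1001 bases in replicate 1 over its 448 open gaps, against 664.5 bases for the same gaps in the combined list. In replicate 2 it was 869 bases over 868 gaps, against 605. The gap was wider in the replicate at 316 gaps in replicate 1 (70.5%) and at 559 in replicate 2 (64.4%). Coverage at the very centre of a gap was low but not 0. At the midpoint of the gap, replicate 1 had an enriched region in 22.6% of the 1326 gaps and replicate 2 in 9.05%. At the 3886 other gaps under 2000 bases these shares were 22.3% and 11.3%.

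The dip at the gap centre was seen in both replicates for narrow and for wide gaps. For the 608 gaps under 500 bases inside runs, replicate 1 covered the centre in 31.9% and the point 1000 bases to the left of it in 60.0%. Replicate 2 covered the centre in 16.9% and the same point to the left in 79.9%. For the 718 gaps of at least 500 bases the centre was covered in 14.8% by replicate 1 and in 2.37% by replicate 2. The point 1000 bases to the left was covered in 47.8% and 70.1%. The dip was not particular to runs. At other gaps under 500 bases replicates 1 and 2 covered the centre in 32.6% and 20.1%. At other gaps of at least 500 bases they covered it in 13.2% and 3.67%. Replicate 2 followed the combined list more closely at both widths, with higher values beside the gap and lower values inside it.

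**Figure D4:**
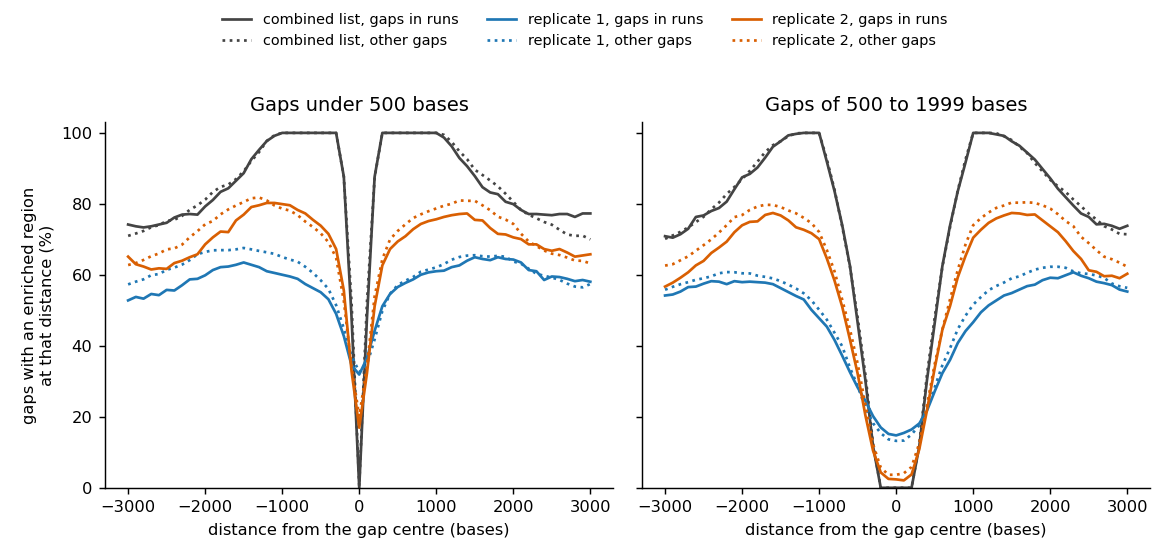
Share of gaps (vertical axis, %) with an enriched region of the combined list (grey), replicate 1 (blue) or replicate 2 (orange) at each distance from the gap centre (horizontal axis, bases), for gaps under 500 bases (left) and of at least 500 bases (right). Solid lines are gaps inside runs and dotted lines other gaps under 2000 bases. At the centre of wide gaps inside runs, replicate 1 stood at 14.8% and replicate 2 at 2.37%.

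Just outside the runs both replicates covered less than inside the gaps. At the 450 run ends that faced at least 2000 bases without a combined region, replicate 1 covered 5.44% of the first 2000 bases beyond the end and replicate 2 covered 5.04%. The gaps inside runs were covered to 18.1% and 8.65%, and the member regions to 68.7% and 80.9% (74.8% ± 8.62, SD, n = 2). Gap bases lie nearer to an enriched region than most bases of these outer windows, and distance was not held equal in this comparison.

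Of the member regions, most were met by at least one replicate. Replicate 1 met 1078 of 1588 (67.9%, interval 65.5 to 70.1), against 64.4% of all combined regions under 10000 bases. Replicate 2 met 1311 (82.6%, interval 80.6 to 84.3), against 81.8%. Both met 934 (58.8%), against 55.8%, and neither met 133 (8.38%), against 9.55%. The members met by both held 78.1% of the member bases, and their median width was 3916 bases at a median score of 0.63. The 133 met by neither were narrow, at 1185 bases in the median, with scores around a median of 0.34. Of the members, 190 were narrower than 1301 bases, the width of the narrowest region in either replicate list. Every member was met by both replicates in 13 of the 262 runs (4.96%), in 36 by replicate 1 and in 99 by replicate 2.

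Coverage varied widely from run to run, with no positive rank correlation between the replicates. Per run, replicate 1 covered between 0% and 100% of region bases with a median of 68.6%, and replicate 2 between 11.98% and 99.8% with a median of 82.6%. Replicate 2 covered the larger share in 189 runs (72.1%). Of gap bases, replicate 1 covered a median of 13.4% per run and replicate 2 a median of 6.35%, and replicate 1 covered the larger share in 158 runs (60.3%). Across the 262 runs the Spearman rho between replicates was -0.14 for region bases and -0.37 for gap bases, given as a description. The gaps are sequence that the combined list of these same samples left out. Their coverage in the 2 replicates is therefore not independent of that choice. Member regions were likewise set by that list, so neither negative rho can show that the replicates behaved in opposite ways. Coverage of region bases rose with the median score of a run in both, with rho 0.35 in replicate 1 and 0.46 in replicate 2.

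Among runs of at least 8 regions, the gaps most covered were covered mainly by replicate 1. The run 3R:5438277-5463538 (25.3 kb, 8 regions) had 72.1% of gap bases covered by replicate 1 and 3.97% by replicate 2. For X:17045442-17087688 (42.2 kb, 8 regions) the shares were 54.9% and 16.9%. In 2L:12468057-12494513 (26.5 kb, 8 regions) replicate 1 covered 64.5% of gap bases and 100% of region bases, while replicate 2 covered 0% and 46.9% and met 4 of the 8 regions. Replicate 1 bridged gaps as wide as 1435 bases there, and its widest region measured 10574 bases.

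Runs at the other extreme had few gap bases covered in either replicate. In 2R:7893471-7931733 (38.3 kb, 9 regions) 0.509% and 2.18% of gap bases were covered and 0 of 8 gaps bridged. In X:17651680-17686310 (34.6 kb, 9 regions) the shares were 0.037% and 4.50%, replicate 1 met 3 of its 9 regions, and replicate 2 bridged 1 gap, of 69 bases. That run held scores from 0.20 to 1.66, the highest being at its regions 4 and 9, which replicate 1 covered to 97.1% and 95.5%. In 3R:4024604-4071967, named above for its span, 0.219% and 5.01% of gap bases were covered.

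Applying the rule to each replicate list gave different numbers of runs, with larger shares of filled gaps. Replicate 1 held 83 runs with 454 regions (6.33% of its enriched regions), and replicate 2 held 315 with 1944 regions (19.6%). Median spans were 22.7 kb and 24.3 kb, and the longest rows had 9 and 19 regions. Replicate 2 bridged 151 of the 371 gaps in replicate 1 runs (40.7%, interval 35.8 to 45.8), against 37.7% of all gaps under 2000 bases in that list. Replicate 1 bridged 636 of the 1629 gaps in replicate 2 runs (39.0%, interval 36.7 to 41.4), also against 37.7% of all short gaps. The replicate that looked up the gaps had no part in defining these runs. By bases, 54.0% of the gap sequence of replicate 1 runs was covered by replicate 2, and 44.0% of that of replicate 2 runs by replicate 1. Outside runs the bridged shares were 37.3% and 37.1%. Gaps of a run drawn from a single replicate were thus filled by the other replicate far more often than gaps of the combined list.

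Runs of the lists overlapped in part. Of the 262 combined runs, 121 (46.2%, with 45.5% of their bases) overlapped a run of replicate 2 and 27 (10.3%, with 8.03% of bases) a run of replicate 1. Of the 83 runs of replicate 1, 26 overlapped a combined run (31.3%) and 25 a run of replicate 2 (30.1%). Of the 315 runs of replicate 2, 124 overlapped a combined run (39.4%) and 26 a run of replicate 1 (8.25%). Runs of all 3 lists met at 17 combined runs (6.49%). The longest of these 17, chosen after their values were seen, had 10 regions each at 3R:19114381-19157077 (42.7 kb), X:21846711-21886721 (40.0 kb) and 3L:12105742-12144762 (39.0 kb). In the run on X, replicate 1 met 8 and replicate 2 met 10 of the 10 regions, and 8 of its 9 gaps were bridged by neither. Many replicate runs touched broad combined regions: 46 of 83 (55.4%) and 172 of 315 (54.6%) shared at least 1 base with a combined region of 10000 bases or more. The shares of bases were lower, at 37.5% and 31.6%.

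Runs were found on all 5 large chromosome arms and on no other sequence. In the combined list, arm 3R carried 71 (2.54 per Mb), X 52 (2.32 per Mb), 2R 46 (2.17 per Mb), 3L 50 (2.04 per Mb) and 2L 43 (1.87 per Mb). The share of small regions that lay in runs followed nearly the same order, from 21.3% on X and 20.9% on 3R to 16.1% on 2L. The replicate lists ordered the arms differently. Replicate 1 had its highest density on X (0.981 per Mb) and replicate 2 on 2R (3.07 per Mb). The arm 2L was lowest in each of the 3 lists, with 0.435 per Mb in replicate 1 and 2.26 in replicate 2. An exact permutation test of these densities over 2 samples cannot reach 0.05, and none was made.

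Chromosome 4, the small and largely heterochromatic chromosome, held 0 runs in all 3 lists. Of its 47 combined regions 0 lay in a run, and its longest row had 4 small regions. Read as up to 3 counts, the 0 would allow a share of up to 6.38%. Regions enter a run only 5 or more at a time, so this limit, which counts regions singly, is too low for a share in runs. At the centromere-facing ends of the assembled large arms runs were sparser apart from 3R. The 2 Mb at these ends held 15 runs over the 5 arms (1.5 per Mb), against 247 in the rest (2.26 per Mb). Sequences listed apart from the arms, such as 3LHet, 3RHet and XHet, were not part of these windows, so the windows need not adjoin the centromere. The 3R end held 8 of the 15, at 4.00 per Mb against 2.43 elsewhere on 3R, while 2R and 3L held 1 each. Small regions were also sparser there over the 5 arms, at 43.0 per Mb against 72.9 outside, and on 3R denser, at 96.5 against 71.3. Per 100 small regions there were 3.49 runs inside the 2 Mb ends and 3.11 outside. The arms went both ways. The value was lower inside on X (2.67 against 3.46) and 2R (1.72 against 3.11). It was higher inside on 2L (3.66 against 2.73), 3L (4.545 against 2.81) and 3R (4.145 against 3.41). Apart from 3R, these ends held between 1 and 3 runs each. How much of that sequence reads could be placed on was not measured.

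**Figure D5:**
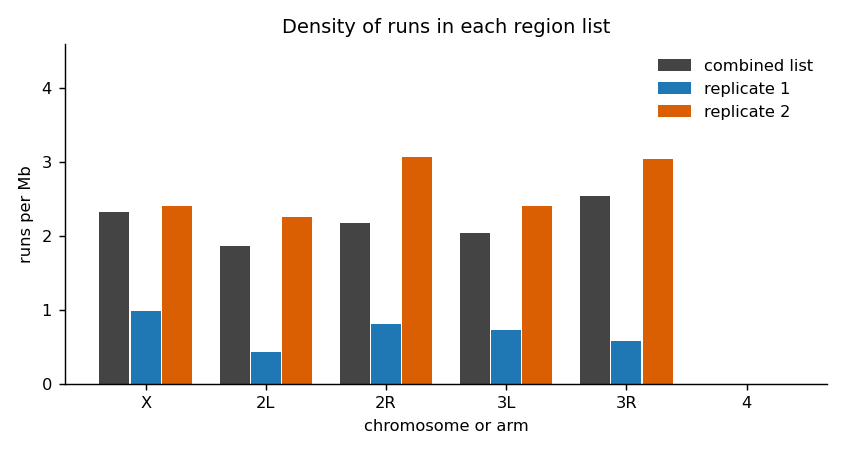
Number of runs per Mb (vertical axis) on X, 2L, 2R, 3L, 3R and 4 (horizontal axis) in the combined list (grey), the replicate 1 list (blue) and the replicate 2 list (orange). Replicate 1 had between 0.435 and 0.981 runs per Mb on the large arms, replicate 2 between 2.26 and 3.07, and chromosome 4 had 0 in each list.

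The number of runs per 1 Mb differed along the chromosomes. These counts were not set against random placement, so they do not show that runs cluster. Of 118 full windows of 1 Mb, 16 had no run starting in them, and the median was 2 runs. The 16 include windows with few small regions, such as 3L:23000001-24000000 with 0 and 2R:1-1000000 with 7, and the full window on chromosome 4. The most crowded window was X:16000001-17000000, with 8 runs and 49 member regions, and its neighbour X:15000001-16000000 held 6 runs and 37. On 3L the window 12000001-13000000 held 7 runs and 40 members, and on 2R the window 8000001-9000000 held 6 and 38. Members were more numerous where small regions were (Spearman rho 0.62 over 118 windows, a description, since members are small regions). The match was loose: 3L:6000001-7000000 had 96 small regions and 2L:5000001-6000000 had 81, with 0 runs in either.

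The replicates covered the largest share of member bases on different arms. Replicate 1 covered between 67.2% (X) and 71.8% (3L) of region bases, and replicate 2 between 75.05% (2L) and 86.8% (2R). The share of gaps bridged by replicate 1 ranged from 12.1% on 3R to 19.5% on X, and by replicate 2 from 2.81% on 3L to 6.17% on 2R. Replicate 1 bridged the larger share on each of the 5 arms.

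Most runs stood apart from broad regions. Both ends faced a gap of at least 2000 bases in 195 runs (74.4%), while 67 (25.6%, interval 20.7 to 31.2) lay within 2000 bases of a region of 10000 bases or more, 7 of them on both sides. Of single small regions 19.0% (475 of 2507) and of rows of 2 to 4 small regions 26.8% (461 of 1718) had such a neighbour. The median distance from a run to the nearest region of 10000 bases or more was 21264 bases, and the greatest was 890235 bases.

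Scores inside runs were those of small regions in general. The median was 0.44 for the 1588 members (quartiles 0.33 and 0.67) and 0.43 for the 6870 other small regions (quartiles 0.32 and 0.65). Regions of 10000 bases or more had a median of 0.96. Scores followed width in the same way, with a Spearman rho across regions of 0.76 inside runs and 0.73 outside, given as a description. The first and last regions of a run had a median score of 0.43 and a median width of 2408 bases, and interior regions 0.44 and 2702 bases. Neighbours within a run were hardly more alike than pieces of different rows: rho was 0.11 for the scores of 1326 neighbouring pairs and 0.05 for their widths. It was 0.07 for the scores of 3609 pairs of consecutive small regions at least 2000 bases apart. For 2645 pairs of small regions beside other short gaps it was 0.14, so neighbours in runs were not more alike than those in shorter rows. Within a run the highest and lowest scores differed by 0.58 in the median, with a range over runs from 0.11 to 1.46.

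The weaker neighbour of a gap differed with how the replicates treated that gap. In replicate 1, the lower score of the 2 regions beside a gap had a median of 0.45 where both sides were met and the gap was open. It was 0.36 where the gap was bridged, 0.33 where one side was met and 0.30 where neither was. In replicate 2 the same medians were 0.38, 0.36, 0.30 and 0.28. The gaps bridged were also narrower, with medians of 249.5 bases in replicate 1 and 68 bases in replicate 2, against 664.5 and 605 bases for gaps open between met neighbours. The scores are values of the combined list, which belongs to these same samples. They are therefore not independent of which neighbours a replicate met. Score also followed region width (rho 0.76 in runs), and width was not held equal between these groups.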

How the data were processed

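Nuclei of wild-type larvae gave 2 H3K4me1 ChIP samples and 2 inputs. The submitters' processing notes name Bowtie 0.12.7 as a tool, and coordinates are on FlyBase release 5, per the file headers. The authors deposited 3 region lists, each region with a start, an end and a score of theirs with no stated scale. How regions were called, at what threshold, and how the combined list was made is not stated in the labels or file headers used here. A gene table of release 6 was not used, since the builds differ.

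Regions not labelled as depletion were used throughout, and 1 shared base sufficed for an overlap. Members and the rule for named runs were chosen with earlier results of these data known. Named runs were the 5 with the most regions, the 5 widest, the 3 with the highest and the 3 with the lowest mean gap coverage among runs of at least 8 regions, and the longest on each large arm. Values per replicate carry mean and SD, and shares 95% Wilson intervals, which cover counting error only. A count of 0 was given a limit of 3 counts of the total. Alternatives changed the limits of the rule, the list and the replicates. The search for runs and bridged gaps was tested on simulated data. Python 3.11.15, NumPy 2.4.6, pandas 2.3.3, SciPy 1.17.1 and Matplotlib 3.10.9 were used.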

Additional observations from a re-analysis of the deposited data

How the results depend on the processing

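Of 81 recomputed values under 17 settings, 53 stayed within 1 SD of the replicates or, for counts, within 1.5 times, 23 moved further, and 5 differences changed sign; the cause was not tested. The 53 include 8 values without one replicate, which with 2 replicates lie within 1 SD by construction. The number of runs (262) and of their regions (1588) followed the limits chosen: 90 and 513 with gaps under 1000 bases, 97 and 556 with widths under 5000, 403 and 2590 with widths under 20000, 479 and 2456 with at least 4 regions, 38 and 343 with at least 8, 13 and 73 in the higher-scoring 50% of the list, 174 and 1006 without regions narrower than any replicate region, and 83 and 454 in the replicate 1 list. With gaps under 3000 bases the regions numbered 2466. The bridged share of gaps (10.3%) was 40.7% and 39.0%, and covered gap bases (13.4%) 54.0% and 44.0%, for runs of the replicate 1 and replicate 2 lists. Where 50% of each neighbour had to be covered, the bridged share was 6.60% (9.80% in replicate 1 and 3.39% in replicate 2). Covered region bases (74.8%) were 65.6% with widths under 5000 and 87.0% in the higher-scoring 50%. The difference in bridging (-1.02 points) was 0.509 with widths under 20000, 0.140 in the higher-scoring 50%, 3.42 and 2.00 for runs of the replicate 1 and 2 lists, and 0.500 where 50% of each neighbour had to be covered. Leaving out one replicate gave 4.83% to 15.8% bridged, 8.65% to 18.1% of gap bases, 68.7% to 80.9% of region bases and differences of -1.74 to -0.298 points. Comparing with rows of 2 to 4 regions, weighting by gap width (-0.902 points) and dropping regions met by neither replicate (206 runs) were chosen after seeing the data. No paired analysis was possible because only the ChIP group has region lists here; differences within a replicate compare gaps of the same sample. Unknown read depth limits every list.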

Other observations

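Regions of depletion, with scores below 0, were not part of the runs. Replicate 2 listed 39 of them, of which 3 overlapped a run, each by sharing bases with a member region, and 0 lay inside a gap of a run, which allows a share of up to 7.69%. The combined list held 17, of which 0 overlapped a run, which allows up to 17.6%. Sequence is not both enriched and depleted in one list, so only the gaps of a combined run could have held one. No share for random placement was worked out for either list, so no conclusion is drawn from these counts of 0. Replicate 1 listed 0.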
